A study of Cricetulus griseus with 8 samples.

Results

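The transcripts described here are mRNAs of Chinese hamster ovary (CHO) cells that carried many ribosome footprints for their RNA level in control cells. They were chosen by their values: at least 5 CPM (counts scaled to a fixed library total) in both control RNA libraries, and a footprint CPM of at least 3 times the RNA CPM in both control pairs. The listed length had to lie between 61 and 2499, the 37 lowest-numbered identifiers were left out, and the mean RNA CPM of RNG140-GFP cells had to be within 4-fold of that of control cells. Of the 34490 transcripts listed, 13147 met every criterion but the footprint ratio, and 302 of those (2.30%) met that as well. The RNA window removed none of them. The ratios in control cells are therefore how the members were chosen and are given as a description only.

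The study compared CHO cells, an established line, that expressed RNG140-GFP with CHO cells labelled WT, the controls. Footprints and RNA of both cell populations were each sequenced in 2 libraries, 8 in all. RNG140 (caprin2), a relative of caprin1, binds mRNA and gathers in granules of the cytoplasm. The labels give neither the promoter behind RNG140-GFP nor whether the cells were 1 clone, and they name no time point. Nothing says that the replicates were separate cultures, so the p-values measure only the spread between these libraries. Footprint libraries held 4908885 to 16928311 counts and RNA libraries 22849263 to 35875108 counts.

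Ribosome profiling digests the RNA that ribosomes do not cover and sequences the protected fragments. The ratio of footprints to RNA of the same transcript is commonly called its translation efficiency: an mRNA that initiates often, or on which ribosomes move slowly, carries more footprints per RNA molecule. Footprint libraries were made from pelleted ribosomes after RNase I treatment, and RNA libraries with a stranded mRNA kit. A high ratio can thus stem from dense ribosomes or from poor capture of that mRNA by the RNA kit, and these cannot be told apart here. This holds for RNG140-GFP cells as well, so a ratio that is high in both cell populations does not separate them. CPM is relative to each library, so a ratio of 1 means the same share of footprints and of RNA, not 1 ribosome per mRNA.

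No gene names come with the identifiers, of which 0 could be matched in a RefSeq gene table. Members are therefore described by their listed length (a length per transcript in the files, without a unit) and by their values. Only 4 are given by identifier, and no sequence or genomic position is printed. The member counts were well above the counting limit: the lowest count of any member was 103 in a footprint library and 59 in an RNA library. All 302 members passed the filter on low counts in each fit.

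The members were mostly short. Their median listed length was 240.5, with quartiles at 145 and 347, against 453 (264 and 739) for the 12845 transcripts that met the other criteria without the ratio. The share of members was lower among longer transcripts. They made up 5.77% of transcripts of length 61 to 176, 4.17% of those of 177 to 306 and 1.14% of those above. Control RNA of the members was at a median of 23.9 CPM, against 31.2 CPM in the other transcripts. Control footprints were at 145 CPM, against 20.3 CPM. The low RNA and high footprint levels are both what the rule selects.

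Members with neighbouring identifiers often held nearly the same values. Transcripts of 1 gene often have consecutive identifiers, and a read that fits more than 1 of them may count for each. Of the members, 75 lay in 33 runs of consecutive identifiers or identical counts, the largest with 4 members. Counted in this way the 302 members form 260 units. These need not be separate measurements: some members with nearly the same values lie in different units, and some runs join unlike members. In 4 sets, 9 members shared the same counts in all 8 libraries. Within runs the control ratio spanned a median of only 0.06 on the log2 scale, so most runs are nearer to 1 measurement than to several.

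The members took a far larger share of footprints than of RNA. They held 8.47% and 8.46% of all control footprint counts (replicates 1 and 2) but 1.63% and 1.64% of control RNA counts. In RNG140-GFP cells they held 7.004% and 6.92% of footprint counts and 1.43% and 1.42% of RNA counts. Both shares were lower in both RNG140-GFP libraries than in both control libraries. The 10 members with the most counts held 24.8% and 24.4% of the members' control footprints. Without each library's top 10, the members still held 6.37% and 6.39% of control footprints and 5.41% and 5.31% of RNG140-GFP footprints. The control libraries chose the members, so nothing is read from the direction of this change.

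**Figure D1:**
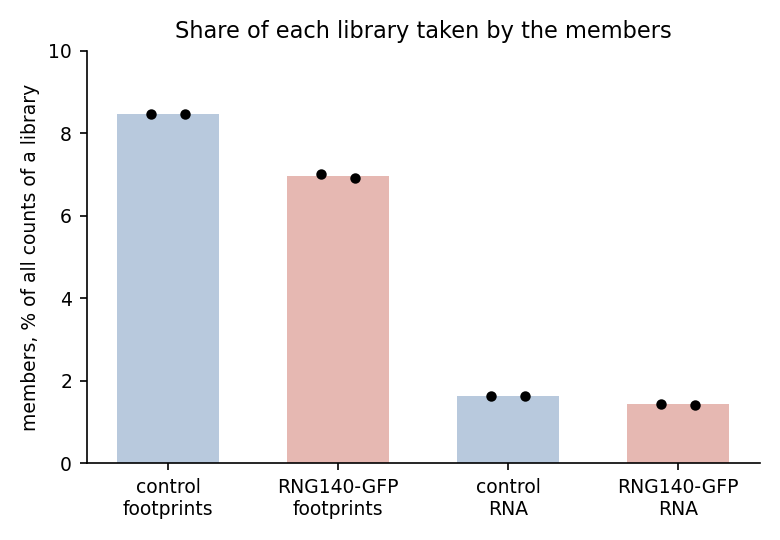
Share of all counts of a library that fell on the 302 members, in percent; bars are means of 2 libraries and points are the libraries. Control footprint shares were 8.47% and 8.46%, RNG140-GFP footprint shares 7.004% and 6.92%, and RNA shares lay between 1.42% and 1.64%.

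The members with the most control footprints were also among the more abundant mRNAs. The first, of listed length 279, had 1023 and 1005 CPM in RNA of control cells, and its control footprints reached 3596 and 3357 CPM. In RNG140-GFP cells it had 731 and 685 CPM in RNA and 2749 and 2701 CPM in footprints. All 4 RNG140-GFP values lay below the matching control values, and the ratio moved little, from 3.51 and 3.34 to 3.76 and 3.94. The next, of listed length 188, went from 486 and 491 to 361 and 355 CPM in RNA. Its footprints went from 2806 and 2669 to 2038 and 2129 CPM. Per 100 units of listed length this transcript carried the most control footprints of all members, at 1493 and 1420 CPM, above the 1289 and 1203 CPM of the member of length 279.

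Another abundant member, of listed length 323, stood out by its ratio. It had only 139 and 137 CPM in control RNA but 2592 and 2388 CPM in control footprints, a ratio of 18.6 and 17.4. In RNG140-GFP cells the RNA was 99.0 and 94.8 CPM, the footprints were 1906 and 1952 CPM, and the ratio was 19.3 and 20.6. Both its RNA and its footprints thus fell while the ratio kept its level. The remaining members of this group had listed lengths of 688 and 313. For the 5 together, RNA changed by between -0.63 and -0.54 on the log2 scale and footprints by between -0.67 and -0.40. The fitted change in translation efficiency lay between -0.04 and 0.21, and none of the 5 was called in it.

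The comparison that leaves the control libraries out asked whether the members were also rich in footprints in RNG140-GFP cells. Footprints were above RNA in all 302 members (edgeR quasi-likelihood test on the 4 RNG140-GFP libraries, largest adjusted p = 2.77e-10), against 39.2% of the 15475 transcripts tested. The median difference was 2.55 on the log2 scale, or 5.87-fold, with a median standard error (SE) of 0.08. Over the tested transcripts that were not members but met the other criteria, the median difference was -0.09. These values use trimmed mean of M-values (TMM) scaling, which placed the RNG140-GFP ratio 0.33 above that from plain CPM on the log2 scale. With plain CPM the count was again 302.

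Against a minimum difference of 2-fold, 299 of 302 members passed, against 10.5% of all tested transcripts in that direction. The 3 that did not were the 3 members with the lowest ratio in RNG140-GFP cells, of listed lengths 129, 139 and 139. With plain CPM, 296 passed. RNG140-GFP RNA entered the choice of members only through the 4-fold window, and RNG140-GFP footprints did not enter it.

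In plain CPM, the rule's own unit, 269 of 302 members (89.1%) also had a ratio of at least 3 in both RNG140-GFP pairs. Of the 13147 transcripts that met the other criteria, members included, 2.65% did so, and of all 15577 fitted transcripts 4.33%. Among the 12845 that were not members, 79 did so. A further 7 members reached 3 in 1 of the RNG140-GFP pairs and 26 in neither. A ratio of at least 2 in both pairs was found for 298 members, and all 302 were above 1 in both. Median ratios of the members were 4.85 and 4.91 in controls. In RNG140-GFP cells they were 4.71 and 4.79.

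Applying the 3-fold threshold to RNG140-GFP cells instead of control cells chose 348 transcripts. The 269 shared transcripts were 89.1% of the control list and 77.3% of the RNG140-GFP list. Of the 79 found only in the RNG140-GFP list, 68 had a control ratio of at least 2 in both pairs and 36 had reached 3 in 1 of them. Of the 33 members missing from the RNG140-GFP list, 30 were called as falling in translation efficiency, against 28.5% of all members and 12.0% of all fitted transcripts. These 33 were defined by a ratio above the threshold in controls but not in RNG140-GFP cells, so nothing is read from that count. The median ratio of the 33 was 3.58 in controls and 2.68 in RNG140-GFP cells, and their control ratios reached 5.77.

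The members were also read by how high they lay above the threshold in controls, which by itself sets how easily a value stays above 3. Among the 95 members with a control ratio (geometric mean of the replicates) of 3 to 4, 71.6% reached 3 in both RNG140-GFP pairs. From 4 to 6 this share was 94.1% of 102 members. All 69 members between 6 and 12 and all 36 members above 12 reached it. Of the 444 transcripts with a control ratio of 2 to 3 that were not members, 11.0% did. The share called as falling in translation efficiency did not follow the bands, at 27.4%, 29.4%, 29.0% and 27.8% from the lowest to the highest. In plain CPM the median change was 0.10 in the lowest band and -0.04, -0.12 and -0.08 in those above it. The median ratio of the members above 12 was 18.0 in controls and 17.6 in RNG140-GFP cells, and 28 of these 36 were again at 12 or more in both RNG140-GFP pairs. Their median control RNA was 12.8 CPM, and the most abundant was the member of length 323, with a mean of 138 CPM.

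Across the members, the mean log2 ratio in controls and in RNG140-GFP cells correlated with r = 0.87 (Spearman 0.81, n = 302 transcripts). Replicate pairs correlated with r = 0.95 in controls and 0.97 in RNG140-GFP cells. Transcripts are not independent replicates, share libraries, and in part share reads. The median difference between replicate pairs was 1.12-fold in controls and 1.09-fold in RNG140-GFP cells.

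**Figure D2:**
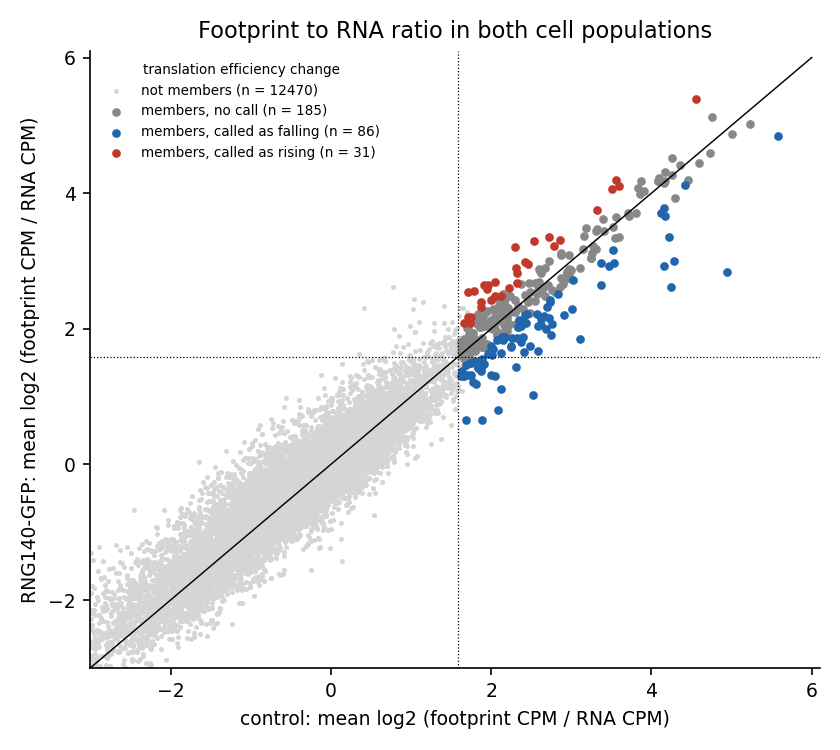
Mean log2 of footprint CPM over RNA CPM in controls (horizontal) and RNG140-GFP cells (vertical) for the 302 members, coloured by the call in translation efficiency change, and for 12470 other transcripts that met the remaining criteria (grey); 375 others with a ratio of 0 or below the start of the axes at -3 are not shown. Dotted lines mark a ratio of 3 and the solid line equal ratios; 269 members lie at 3 or above in both RNG140-GFP pairs.

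The threshold itself separates similar transcripts. The 5 members just inside it had a lower control ratio of 3.002 to 3.015 and RNG140-GFP ratios of 2.24 to 3.72. The 5 transcripts just outside had a lower control ratio of 2.982 to 2.999 and RNG140-GFP ratios of 2.84 to 3.96. The ranges in RNG140-GFP cells overlap.

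The 5 highest ratios in RNG140-GFP cells belonged to members of listed lengths 208 to 335. A member of listed length 328 had RNA levels of 9.92 and 9.57 CPM in controls, against 7.28 and 5.16 CPM in RNG140-GFP cells. Its footprints were 217 and 241 CPM in controls and 264 and 248 CPM in RNG140-GFP cells. The ratio went from 21.9 and 25.2 to 36.2 and 48.1, with no overlap. The next 3, of listed lengths 208, 283 and 335, had RNG140-GFP ratios between 27.6 and 42.4. For length 208 these were 42.4 and 28.5 and rest on 83 and 75 RNA counts, and its control ratios of 25.6 and 28.7 overlap them. For length 283 the control ratios were 40.8 and 34.5 and the RNG140-GFP ratios 33.1 and 31.7. It was well covered, with 1052 and 994 CPM in control footprints and 762 and 742 CPM in RNG140-GFP footprints.

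The member with the highest control ratio had a listed length of 281. Its control ratio was 52.1 and 44.2, from 6.52 and 7.91 CPM in RNA and 340 and 350 CPM in footprints. In RNG140-GFP cells RNA was 9.42 and 8.84 CPM, footprints were 259 and 267 CPM, and the ratio was 27.5 and 30.2. Both RNG140-GFP ratios lay below both control ratios, and the transcript still ranked among the 5 highest members.

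The 5 lowest ratios in RNG140-GFP cells belonged to 4 short members and 1 long one. The member of listed length 129 was abundant: its RNA was at 233 and 225 CPM in controls and at 152 and 146 CPM in RNG140-GFP cells. Its footprints went from 804 and 901 CPM to 227 and 243 CPM. The ratio went from 3.44 and 3.99 to 1.49 and 1.66, and the RNG140-GFP footprint difference over RNA was 0.98 ± 0.06 (SE) on the log2 scale. Footprints thus fell much further than RNA.

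A pair of members shared the listed length of 139 and differed in their RNA. In one, RNA went from 27.8 and 32.6 to 38.5 and 47.1 CPM while footprints went from 93.0 and 100.02 to 63.3 and 71.4 CPM. In the other, RNA went from 16.2 and 18.1 to 10.04 and 9.41 CPM and footprints from 68.8 and 76.2 to 16.9 and 16.8 CPM. The ratios ended alike, at 1.64 and 1.52 in the first and at 1.69 and 1.79 in the second, with control ratios of 3.34 and 3.07 and of 4.25 and 4.22. The next lowest had a listed length of 121. Its RNA went from 58.1 and 62.3 to 75.2 and 82.9 CPM and its footprints from 309 and 389 to 148 and 173 CPM. From 5.32 and 6.25 the ratio dropped to 1.97 and 2.08. The long one had a listed length of 453, above the members' upper quartile, and its ratio went from 3.77 and 5.05 to 2.15 and 2.18.

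**Figure D3:**
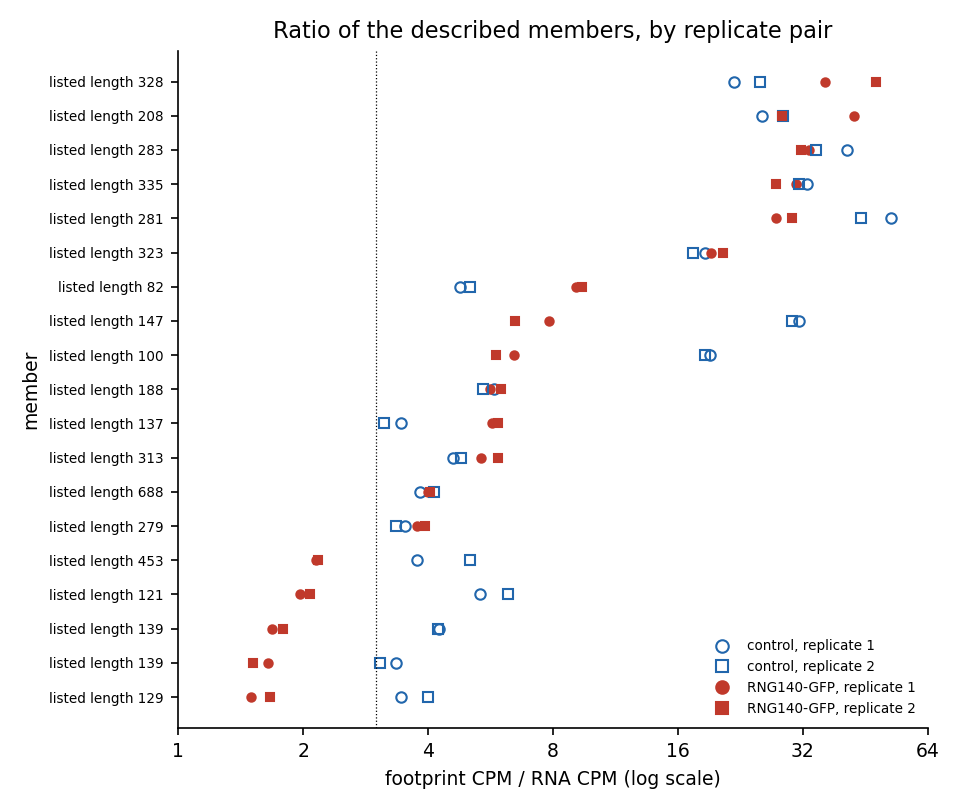
Ratio of footprint CPM to RNA CPM (horizontal, log scale) for the 19 members described by rule, in order of their RNG140-GFP ratio; open blue symbols are controls, filled red symbols RNG140-GFP cells, circles replicate 1 and squares replicate 2, and the dotted line marks a ratio of 3. The 5 members at the bottom lie between 1.49 and 2.18 in RNG140-GFP cells, left of the line, and those at the top between 27.5 and 48.1.

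The remaining values set RNG140-GFP cells against the control cells that chose the members. They are given as a description, beside the share over all 15577 transcripts fitted, and nothing about the members as a list is read from them. Translation efficiency was called as falling for 86 members (28.5%) and as rising for 31 (10.3%), against 12.0% and 11.2% of all transcripts (edgeR, adjusted p under 0.05). DESeq2 called 18 as rising. Leaving out the first control RNA library left 13 rising, and leaving out the second RNG140-GFP RNA library left 15. The shares over all transcripts in the DESeq2 fit and in the fits with a library left out are not given. Nothing about the members is therefore read from these lower counts. In the main fit the other 185 members had no call. The median fitted change was -0.08 on the log2 scale (quartiles -0.34 and 0.12), against 0.01 over all transcripts.

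In plain CPM, both RNG140-GFP ratios lay below both control ratios for 108 members and above for 78. Over all transcripts these shares were 25.7% and 36.6%. The list chosen by the same threshold in RNG140-GFP cells gave the opposite order, with 77 of 348 below and 140 above. Its median fitted change was 0.05. The sign of the median change thus went with the cell population in which the threshold was applied.

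Choosing on 1 replicate and reading the other removes the noise of single libraries. With the threshold applied to control replicate 1 alone, 334 transcripts were chosen, and 302 (90.4%) reached 3 in control replicate 2. The difference between RNG140-GFP and control cells in replicate 2 then had a median of -0.02 on the log2 scale. With control replicate 2 alone, 356 were chosen, 84.8% of them reached 3 in replicate 1, and the median difference in replicate 1 was 0.00. Over all fitted transcripts the median difference in plain CPM, averaged over replicates, was 0.07. Lists chosen in RNG140-GFP replicate 1 or 2 alone had a median difference of 0.08 or 0.11 in the other replicate. Deviations shared by both control replicates are not removed this way.

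RNA and footprints of the members were lower in RNG140-GFP cells more often than higher. RNA was called as falling for 165 members (54.6%) and as rising for 48 (15.9%), against 30.3% and 31.0% of all transcripts. Footprints were called as falling for 194 (64.2%) and as rising for 32 (10.6%), against 26.4% and 25.9%. The median change was -0.25 in RNA and -0.38 in footprints on the log2 scale. With plain library sizes 52 members rose in footprints in place of 32. In the list chosen in RNG140-GFP cells, which shares most of its transcripts, the medians were -0.26 and -0.28.

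The joint calls show which side of the ratio moved. Both RNA and footprints fell in 143 of the 302 members, whereas they did so in 18.5% of all fitted transcripts. Both fell without a call in translation efficiency in 105 of the 302 members, against 14.4% of all fitted transcripts. Both rose in 20 of the 302, against 17.5% of all. Footprints fell while RNA rose in 14 of the 302, against 1.25% of all. The reverse was seen in 0 members, against 1.31% of all. Among the 86 members with falling translation efficiency, footprints fell in 72 (83.7%) and RNA rose in 27 (31.4%), against 67.1% and 42.1% of all transcripts with that call. Among the 31 with rising translation efficiency, footprints rose in 12 (38.7%) and RNA fell in 19 (61.3%), against 67.5% and 43.4%. In 39 of the 302 members no call was made in RNA, footprints or translation efficiency, against 24.7% of all fitted transcripts. The control libraries enter each of these calls, so nothing about the members is read from the difference to all transcripts.

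**Figure D4:**
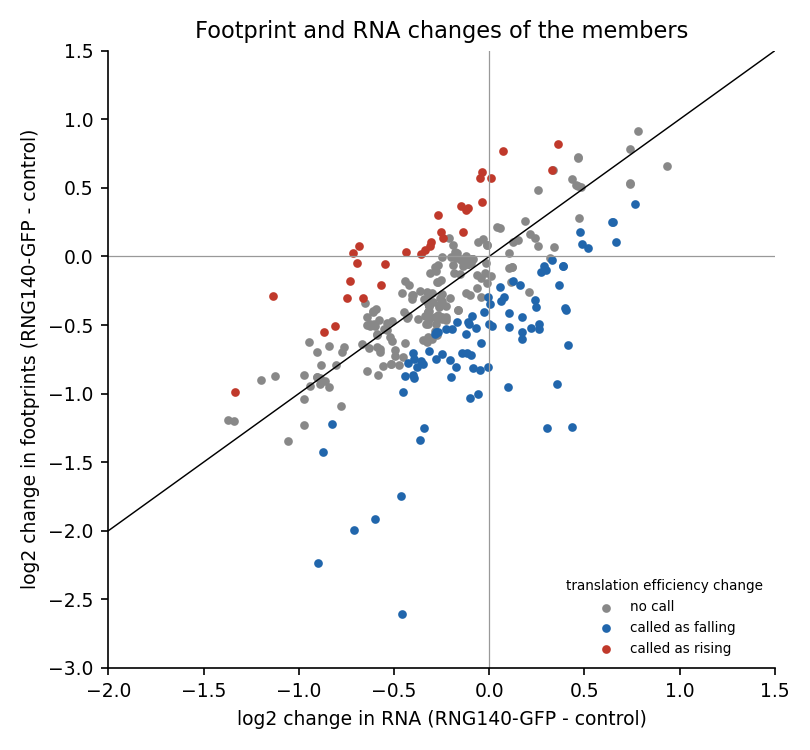
Fitted log2 change (RNG140-GFP minus control) in RNA (horizontal) and in footprints (vertical) of the 302 members, coloured by the call in translation efficiency; the solid line marks equal changes. Most points lie in the lower left, where the 143 members that fell in both are found, and the members called as falling in translation efficiency lie below the line.

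The decreases of more than 2-fold were mostly in short members. Translation efficiency was called as falling with a fitted change of more than 2-fold in 10 members. It was called as rising with such a fitted change in 0. Of all fitted transcripts, 0.526% fell and 1.43% rose in this way. The call was against no change, and no test against a 2-fold minimum was made for this change. A high control ratio chose the members and enters this change, so the counts are a description. Of the 10, 8 had listed lengths of 100 to 147, a range read from these members themselves, and the others 345 and 453. Of all 302 members, 101 had listed lengths of 61 to 176. The lengths of all fitted transcripts with such a decrease were not compared. Footprints fell in all 10, whereas RNA rose in 4, fell in 5 and had no call in 1. In 5 of them the RNG140-GFP ratio was still at 3 or more in both pairs.

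The largest decrease was that of ENSCGRT00000007568, of listed length 147. Its RNA was rare in all libraries, at 5.46 and 5.92 CPM in controls and 3.84 and 5.03 CPM in RNG140-GFP cells. Its footprints went from 171 and 178 CPM to 30.1 and 32.7 CPM. The ratio went from 31.3 and 30.1 to 7.85 and 6.49, and the fitted change was -2.15 ± 0.16 (SE) on the log2 scale. Both RNG140-GFP ratios lay far below both control ratios, and the replicates of each cell population lay close together.

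The second was ENSCGRT00000013803, of listed length 100. Its RNA was 5.49 and 5.54 CPM in controls and 7.94 and 7.92 CPM in RNG140-GFP cells, and its footprints were 105 and 103 CPM against 51.1 and 46.3 CPM. Its ratio of 19.1 and 18.6 in controls became 6.44 and 5.84, a fitted change of -1.68 ± 0.14 (SE). Here RNA rose while footprints fell.

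The largest increases were smaller. ENSCGRT00000011460, of listed length 82, had an RNA level of 5.91 and 5.70 CPM in controls and of 3.01 and 2.58 CPM in RNG140-GFP cells, the latter from 83 and 59 counts. Its footprints were 28.2 and 28.7 CPM in controls and 27.4 and 24.2 CPM in RNG140-GFP cells. The ratio went from 4.77 and 5.04 to 9.09 and 9.38, a fitted change of 0.84 ± 0.19 (SE). RNA changed by -1.13 on the log2 scale and footprints by -0.29, so RNA fell further than footprints.

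This transcript ended a run of 4 members with consecutive identifiers that did not move together. Those of listed lengths 97, 237 and 196 changed by -0.35 ± 0.12, 0.03 ± 0.10 and 0.32 ± 0.11 (SE). The run had the widest span of changes of all runs, 1.20 on the log2 scale, against a median of 0.03. In 2 runs 1 member was called as rising and another as falling.

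ENSCGRT00000023355, of listed length 137, was more abundant. Its RNA was 40.8 and 38.3 CPM in controls and 25.5 and 27.0 CPM in RNG140-GFP cells. Its footprints were 140.3 and 120.2 CPM against 146 and 159 CPM. Its ratio of 3.44 and 3.14 in controls became 5.72 and 5.91, a fitted change of 0.76 ± 0.11 (SE), with falling RNA and no call in footprints.

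Members of different length were last compared in 3 classes of about equal size. In the shortest class (61 to 176) the 101 members had a median change in translation efficiency of -0.08, with 19 rising and 31 falling, whereas the 1639 fitted transcripts of that length that were not members had a median of 0.33, with 620 rising and 49 falling. In the middle class (177 to 306) the medians were -0.02 for 101 members and 0.12 for the others. In the class above 306 they were -0.18 for 100 members and -0.06 for the others. The gap between members and others was thus widest among short transcripts, where members also spread the most, from -2.15 to 0.84. The members and not the others were chosen by a high control ratio, so this gap is a description and was not tested.

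**Figure D5:**
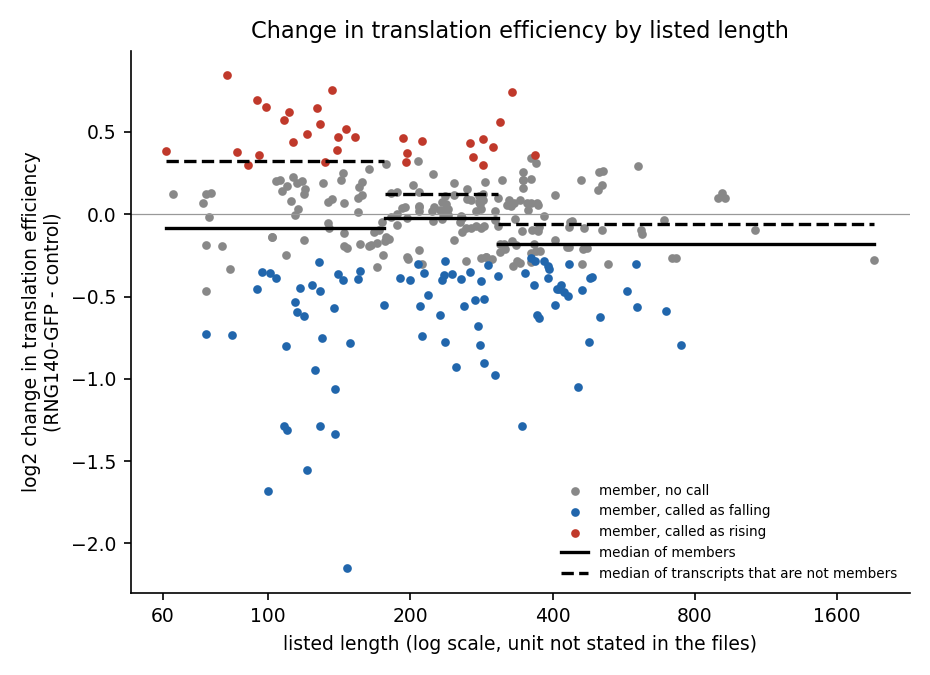
Fitted log2 change in translation efficiency (RNG140-GFP minus control) of the 302 members against listed length (log scale); solid lines are medians of members and dashed lines medians of other transcripts that met the remaining criteria, in 3 length classes. In the shortest class the medians are -0.08 and 0.33, and the 8 short members with a called fall and a fitted change of more than 2-fold lie at lengths of 100 to 147.

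The ratio in RNG140-GFP cells, which does not use the control libraries, was higher in members than in the other transcripts in all 3 classes. Its medians for replicates 1 and 2 were 5.44 and 5.71 among the shortest members, 4.63 and 4.65 in the middle class and 4.40 and 4.22 among the longest. The other transcripts had 1.05 and 1.07, 0.93 and 0.94, and 0.67 and 0.68. A ratio of at least 3 in both RNG140-GFP pairs was found for 92.1%, 89.1% and 86.0% of the members, against 2.61%, 0.948% and 0.162% of the other transcripts. The members' median control ratios also differed between the classes, at 5.39, 4.46 and 4.27 in replicate 1 and 5.58, 4.67 and 4.75 in replicate 2. A higher control ratio by itself makes it easier to stay above 3, so nothing is read from the order over length.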

How the data were processed

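Each deposited table gives, per library, the identifier of a transcript, its length and a whole-number read count that the authors did not normalize. The tables have no header, and the unit of the length is not stated. The submitters' processing notes name TopHat2 2.0.9, Bowtie2 2.1.0 and CASAVA 1.8. The genome build, the annotation and how reads were counted were not given in the sources used here. Groups and replicate numbers came from the sample titles.

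CPM is a transcript's count times 1000000 over the library total. Tests on the deposited counts used the quasi-likelihood F-test of edgeR 4.0.16 (R 4.3.3; TMM, minimum count 10 in both assays, Benjamini-Hochberg threshold 0.05). Footprints against RNA in RNG140-GFP cells was fitted on those 4 libraries (15475 transcripts), with a further test against a 2-fold minimum. Changes between cell populations were fitted on all 8 libraries as 4 group means (15577 transcripts), and the change in translation efficiency was their interaction. Standard errors are the log2 difference over the square root of F. In simulated data the tests recovered 97% (footprints against RNA) and 85.1% (change in translation efficiency) of 2-fold changes. Unlike these data, the simulation gave all transcripts the same spread, and only a few transcripts differed between footprints and RNA. Its shares therefore do not say how many changes were missed here. Alternatives were DESeq2 1.42.0, other scalings, filters, thresholds and membership rules, a replicate block and left-out libraries.

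The members and lists were chosen with earlier results of these data known. Identifiers were given for the 2 largest rises and falls in translation efficiency among called members whose RNG140-GFP ratios both lay beyond both control ratios, 1 per set with identical counts. Described by length were the 5 highest and lowest in RNG140-GFP ratio, the 5 with most control footprints and the 5 on either side of the threshold. Other members, such as those of a named member's run, were chosen after their values were seen.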

Additional observations from a re-analysis of the deposited data

Results flagged for a closer look

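The footprint to RNA difference of the 4 transcripts given by identifier differed between the cell populations in the interaction test, which is what marked them for a closer look. The log2 differences were -2.15 for ENSCGRT00000007568, -1.68 for ENSCGRT00000013803, 0.84 for ENSCGRT00000011460 and 0.76 for ENSCGRT00000023355. They are the extremes of 302 transcripts chosen by a high control ratio, from the same control libraries that enter the difference. With any 1 library left out these were -2.37 to -1.98, -1.75 to -1.60, 0.73 to 0.94 and 0.66 to 0.90.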

How the results depend on the processing

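Footprints above RNA in RNG140-GFP cells were called for every member in each scaling, filter, tool and left-out library run, and the 4 transcripts given by identifier kept their direction and call. With TMM-scaled CPM the median log2 ratio in RNG140-GFP cells was 2.58 in place of 2.25. The median change in translation efficiency was -0.11 with RLE size factors, -0.030 with plain library size, -0.055 at a minimum count of 50 and -0.11 in DESeq2. With each library left out it was -0.139 to -0.072. In all of these settings a high control ratio chose the members and enters the change, so nothing is read from its sign. The list chosen in RNG140-GFP cells had a median of 0.05 in the main fit. Members rising in translation efficiency numbered 18 in DESeq2, 13 at an adjusted p under 0.01 and 13 to 28 with each library left out, and 52 rose in footprints with plain library size; the cause was not tested. Leaving out each library gave 73 to 84 falling in translation efficiency, 29 to 34 rising and 178 to 198 falling in footprints, and 36 to 49 rising and 133 to 165 falling in RNA; a library left alone in its group was taken to vary as those of the other groups do. Shares over all transcripts are given only for the main fit at an adjusted p under 0.05. Nothing about the members is therefore read from the counts of calls under other settings. A threshold of 4 x in control cells left 182 members, all with footprints above RNA and 181 by over 2-fold. Of these, 178 were at 3 or more in both RNG140-GFP pairs, 17 rose and 55 fell in translation efficiency. Their median log2 ratio in RNG140-GFP cells was 2.65 and their median change -0.16. A threshold of 2.5 x gave a median log2 ratio of 1.97 in RNG140-GFP cells, and a minimum RNA CPM of 10 gave 2.15. The rule on TMM-scaled CPM, chosen after seeing the data like the use of 1 member per run, gave 524 members. All were above RNA and 514 by over 2-fold, with 51 rising and 149 falling in translation efficiency. Their median log2 ratio in RNG140-GFP cells was 1.804. A replicate block gave 36 rising and 95 falling in translation efficiency, and 302 and 299 members above RNA and above by over 2-fold. The deviations of libraries with the same number correlated between cell populations by 0.13 in RNA and 0.01 in footprints. Between footprints and RNA they correlated by 0.03 in controls and -0.005 in RNG140-GFP cells. No large deviation shared by number was thus seen, and the reported fits hold no block. Whether libraries of the same number were prepared together cannot be told from these values. Among the members the lowest counts were in RNA (59) rather than footprints (103); without the smallest footprint library 21 rose in translation efficiency.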
